A study of Mus musculus with 4 samples.

Results

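Transcripts of the cytosolic ribosomal protein genes were followed through single-cell RNA libraries of endothelial cells sorted from mouse aorta and lung. The set was chosen by name: symbols that start with Rpl or Rps and a digit, together with Rplp0, Rplp1, Rplp2 and Rpsa, without pseudogenes and without the Rps6k kinases. It held 86 of the 30450 gene symbols found in all 4 libraries, 52 for the large subunit and 33 for the small one. The remaining gene, Rps19bp1, has a symbol that passes the rule but encodes a protein that binds Rps19. The genes lie on 19 chromosomes.

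Each cytosolic ribosome holds one copy of nearly every one of these proteins, so cells make them in step with ribosomal RNA. Many of their mRNAs begin with a cytosine followed by a run of pyrimidines, the terminal oligopyrimidine (TOP) motif, through which mTOR signalling and the repressor Larp1 control their translation. Their messages are short, stable and among the most abundant in nearly every cell, endothelial cells included.

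The 4 libraries came from female C57/B6J mice that lacked Apoe, carried an endothelial lineage tracer and had eaten a Western diet for 5 weeks; Apoe loss, diet and tracer were shared by all groups. The groups were KO aorta, WT aorta, KO lung and WT lung, where KO is the endothelial Oct4 deletion (EC-Oct4Δ/Δ, 3 mice) and WT the intact gene (EC-Oct4+/+, 2 mice). Whole aortas and left lung lobes were digested in 1 µg/mL actinomycin D, which blocks transcription, and eYFP-positive cells were sorted against a gate set on littermates without the Cdh5 driver. Each group was 1 library of the Chromium droplet system in which the animals were not told apart, so replicates were lacking throughout, differences were not tested, and intervals cover counting error only. Ages were not given in the labels. Tissue was not separable from library: a difference between the organs and one between 2 preparations cannot be told apart, and the same holds for genotype.

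The deposited matrices held 1623, 449, 529 and 800 barcodes with 4483756, 1034161, 1052504 and 1506574 UMIs (unique molecular identifiers, each a tag for 1 captured mRNA molecule) in the KO aorta, WT aorta, KO lung and WT lung. Cells with at least 500 UMIs and at most 15% mitochondrial UMIs were kept, and 1338, 356, 470 and 700 of them, in the same order, were blood endothelial-like. All 11 pan-endothelial markers were detected in every library. Oct4 itself (Pou5f1) had 1 UMI in the KO aorta, 0 in the WT aorta, 1 in the KO lung and 2 in the WT lung, too few to check the deletion. Pairs of libraries shared 0 to 2 barcodes. Levels are CPM, counts scaled to the same library total, from the summed UMIs of blood endothelial-like cells unless another cell class is named; they count molecules and are not divided by gene length.

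Short windows around the start of transcription show the TOP motif in some of the genes. In the RefSeq promoter table (build GRCm38.p6) 66 of the 86 genes were found, and in 14 of them (21.2%) an annotated start was a C followed by at least 4 further C or T, against 813 of 27025 genes (3.01%) in the whole table. The motif was read on the gene's own strand from the start base only. A start annotated a few bases away from the one used in these cells hides or creates a match, so this is a description of the windows and not a count of TOP mRNAs. The lines below give 15 bases before and 15 bases from the annotated start, 5′ to 3′ on the gene's strand, with the pyrimidine run in capitals. Rpl35, Rps6, Rps27 and Rpl15 are abundant genes that recur in the comparisons. Rps27rt is shown beside Rps27, whose run it nearly shares. Rps3, Rps28 and Rps27rt were among the genes of highest ratio between tissues, Rps27rt with 3.06 in KO and 2.55 in WT cells. Rpl13a had the lowest ratio between genotypes. Of these, Rps27rt holds a run, and Rps3, Rps28 and Rpl13a hold none at these starts.
Rpl35 (chr2:39005117-39005146, minus strand): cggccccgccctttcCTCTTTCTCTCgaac
Rps6 (chr4:86857353-86857382, minus strand): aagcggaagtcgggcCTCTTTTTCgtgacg
Rpl15 (chr14:18270972-18271001, minus strand): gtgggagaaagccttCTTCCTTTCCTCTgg
Rps27 (chr3:90213634-90213663, minus strand): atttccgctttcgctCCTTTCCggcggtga
Rps27rt (chr9:114982725-114982754, minus strand): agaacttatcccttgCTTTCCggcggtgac
Rps3 (chr7:99483695-99483724, minus strand): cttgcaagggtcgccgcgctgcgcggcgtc
Rps28 (chr17:33824548-33824577, minus strand): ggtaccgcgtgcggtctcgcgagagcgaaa
Rpl13a (chr7:45128731-45128760, minus strand): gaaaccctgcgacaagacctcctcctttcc

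Ribosomal protein transcripts made up a large part of all messages, more in the aorta than in the lung. They were 16.7% of the summed UMIs in the KO aorta (exact 95% interval 16.6 to 16.7), 17.4% in the WT aorta (17.3 to 17.5), 9.70% in the KO lung (9.64 to 9.76) and 10.9% in the WT lung (10.8 to 10.9). The median cell held 15.5%, 16.6%, 8.96% and 10.1%, with quartiles of 12.2% and 18.8% in the KO aorta, 13.6% and 19.3% in the WT aorta, 6.94% and 11.4% in the KO lung, and 7.62% and 12.8% in the WT lung. The quartiles overlapped between genotypes within each tissue and between the KO aorta and the WT lung, and did not overlap in the other pairs of an aortic and a lung library. As a gauge of free RNA, erythroid-like cells, which are not expected to make ribosomes, held a share of 0.275% in the KO aorta (3 cells) and 0.202% in the WT aorta (5 cells).

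**Figure D1:**
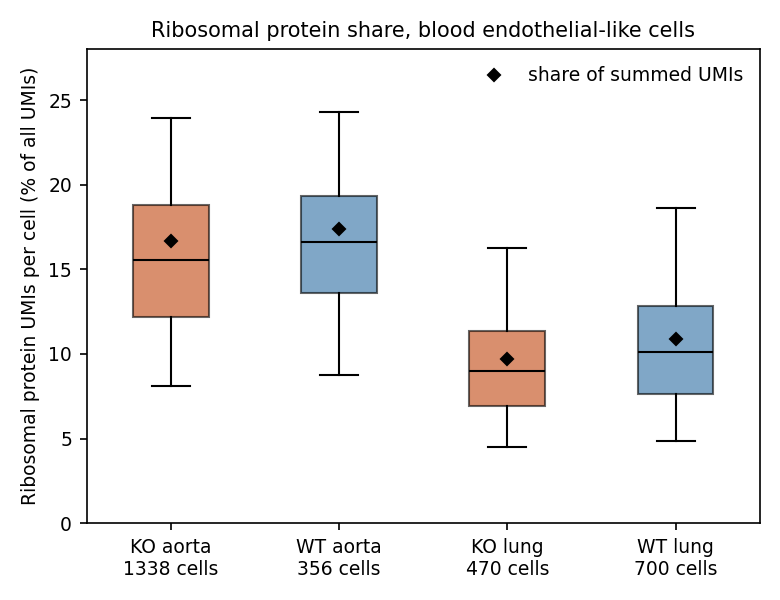
Share of a cell's UMIs that came from ribosomal protein genes (y axis, percent) in blood endothelial-like cells of the 4 libraries (x axis). Boxes run from the lower to the upper quartile of cells with the median as a line, whiskers run from the 5th to the 95th percentile of cells, and diamonds give the share of summed UMIs; both aortic medians lie above both lung medians, and of the aortic and lung boxes those of the KO aorta and the WT lung overlap.

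Levels spread over a wide range, with 65 of the 86 genes at a mean of at least 1000 CPM. Rpl41, the shortest protein of the large subunit, had the highest level in both lung libraries and came after Rps27 in both aortic ones, with 5946 CPM in the KO aorta, 6518 in the WT aorta, 3905 in the KO lung and 4452 in the WT lung. Rps27 had 6374, 6913, 3327 and 4200 CPM in the same order, and Rps29 and Rps14 of the small subunit and Rpl37a of the large one were also near the top, down to 2268 CPM for Rpl37a in the KO lung. Large subunit genes held 55.6% of the ribosomal protein UMIs in the KO aorta, 55.6% in the WT aorta, 57.5% in the KO lung and 57.1% in the WT lung, so the balance between the subunits differed by about 2 points while the total differed much more.

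Paralogs and tissue-restricted copies were at the bottom of the range. Rpl10l, known from the testis, had 0 UMIs in every library, and Rpl3l, known from striated muscle, had 0.260 CPM in the KO aorta, which is below the limit of 3 counts, and none elsewhere. Rpl39l stood at 1.56 CPM in the KO aorta and 5.72 CPM in the WT aorta and was at 0 in both lung libraries. Rps19bp1 lay between 31.8 and 39.6 CPM and Rpl7l1 between 45.4 and 77.3 CPM. Rpl10l, Rpl3l, Rpl39l and Rps19bp1 fell under the minimum of a mean of 50 CPM and 30 UMIs, which left 82 genes measured in all comparisons. The parents of Rpl10l, Rpl3l and Rpl39l were abundant: Rpl10 reached 2490, 2325, 1063 and 1053 CPM, Rpl3 reached 1946, 1868, 903 and 1093 CPM, and Rpl39 reached 2023, 1967, 1052 and 1219 CPM in the KO aorta, WT aorta, KO lung and WT lung.

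Nearly every measured gene stood higher in aortic than in lung cells. In WT cells the summed share was 1.60 times as high in the aorta as in the lung (1.59 to 1.61), and in KO cells 1.72 times (1.70 to 1.73). A gene was counted as past the fold threshold when it was at least 25% higher or at least 20% lower in the group named first. Of the 82 genes, 81 were higher past the threshold in the aorta of WT cells and 0 lower, where 25.7% of the 3216 genes measured in that comparison were higher by that much and 38.8% lower. In KO cells 80 were higher and 1 lower, against 26.7% and 38.3% of 3257 genes. The median log2 ratio of the 82 was 0.66 in WT and 0.78 in KO cells, while that of all measured genes was -0.11 in both. The 80 that were higher past the threshold in KO cells were also higher in WT cells. By any amount 82 were higher and 0 lower in WT cells, against 43.4% and 56.6% of all genes, and 81 higher and 1 lower in KO cells, against 43.7% and 56.3%.

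The size of the difference varied among the genes, and the same few led in both genotypes. Rps3, which lines the mRNA entry channel of the small subunit (chromosome 7, 99477896 to 99483738, minus strand), stood at 3199 CPM in the KO aorta and 984 in the KO lung, and at 2875 CPM in the WT aorta and 1109 in the WT lung. Those ratios were 3.25 (3.04 to 3.49) in KO and 2.59 (2.43 to 2.77) in WT cells. Rps28, a small subunit protein near the mRNA exit (chromosome 17, 33819027 to 33824562), had 3728 CPM in the KO aorta and 1385 in the KO lung, and 4266 in the WT aorta and 1608 in the WT lung, ratios of 2.69 and 2.65. Both aortic libraries were thus over 2 times as high as both lung libraries for Rps3 and Rps28. Rpl10, which completes the large subunit so that the subunits can join, had ratios of 2.34 in KO and 2.21 in WT cells. Rpl12, at the base of the stalk that recruits elongation factors, had 2.32 and 2.25, from 597 and 595 CPM in the KO and WT aorta against 257 and 265 CPM in the KO and WT lung.

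Further leaders came from both subunits. Rplp1, an acidic protein of the stalk, and Rpl35 ranked among the first 8 in WT cells with ratios of 1.98 and 1.87, and Rpl3, a core protein next to the peptidyl transferase centre, and Rps23, a protein of the decoding centre, among those of KO cells with 2.16 and 2.04. Rps27rt, a copy of Rps27 without introns, had 682 CPM in the KO aorta and 223 in the KO lung, and 643 in the WT aorta and 252 in the WT lung, but 88.4% of its last 300 transcript bases are shared with other genes, so its count is uncertain. At the low end, Rpl27 had log2 ratios of 0.17 in KO and 0.32 in WT cells, just under the threshold in WT. Rpl13a was the one gene on the other side, with 1006 CPM in the KO aorta against 1269 CPM in the KO lung, a ratio of 0.793 (0.742 to 0.848), and with 2020 CPM in the WT aorta against 1310 CPM in the WT lung, a ratio of 1.54.

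**Figure D2:**
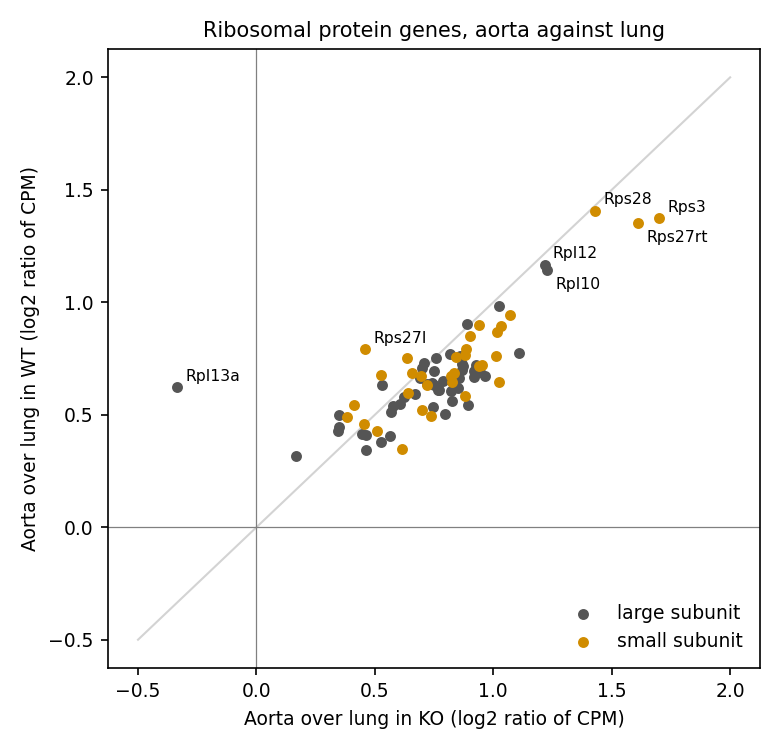
Log2 ratio of CPM, aorta over lung, for 82 ribosomal protein genes in KO cells (x axis) and WT cells (y axis); grey points are large and orange points small subunit genes, and the diagonal marks equal ratios. All but Rpl13a lie above 0 on both axes, and Rps3, Rps27rt, Rps28, Rpl10 and Rpl12 lie furthest out.

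Depth and other properties also differed between the tissues. Median UMIs per blood endothelial-like cell were 2372 and 2080 in the KO and WT aorta against 1706 and 1629 in the KO and WT lung, and median mitochondrial shares were 4.07% and 4.46% against 2.97% and 2.97%. In cells of at least 1000 UMIs, thinned to 1000, the log2 ratio of the share was 0.75 in KO and 0.65 in WT cells. With all blood endothelial-like cells at full depth it was 0.78 and 0.68. Shallower cells were left out, and thinning does not change the expected share of a cell, so this does not test the part of depth. Relative to the genes outside the set, whose median log2 ratio was -0.13 in both genotypes, the ratios were 0.91 in KO and 0.81 in WT cells. Summed markers of aortic lumen cells stood at 26010 and 28129 CPM in the KO and WT aorta (10 of 10 detected in each) against 902 and 871 CPM in the KO and WT lung (7 and 9 of 10). Aerocyte markers stood at 565 and 667 CPM (7 and 6 of 8) against 5897 and 5940 CPM (8 of 8 in each), and proliferation markers at 75.2 and 56.1 CPM (6 and 2 of 6) against 137 and 209 CPM (4 of 6 in each). The part of depth and of these cell classes in the difference was not tested beyond the comparisons within vessel types given later.

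To see which cells carried the difference, cells were clustered within each tissue without using the ribosomal protein genes, and clusters were named from marker genes. In the lung, aerocyte capillary-like cells, the thin capillary cells that face the alveolar air and are led here by Fibin and Ednrb, had the lowest share of the 8 endothelial clusters in both genotypes. It was 6.49% in the KO library (99 cells, 6.39 to 6.60) and 6.93% in the WT library (132 cells, 6.84 to 7.01). Arterial-like lung cells (Gja5, Mgp) held 13.8% in KO (25 cells) and 16.1% in WT (36 cells), venous-like cells (Slc6a2, Ch25h) 13.3% (35 cells) and 14.7% (44 cells), and lymphatic-like cells (Ccl21a, Mmrn1) 14.8% (19 cells) and 15.4% (43 cells). The 4 unnamed lung clusters lay between 9.05% and 11% in KO and between 10.1% and 19.7% in WT, and the highest value, in the cluster led by Fabp4 and Selp, rests on 10 cells.

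Aortic clusters ranged less widely. Immediate early and stress-like cells (Cxcl2, Fos) were highest with 19.7% in KO (156 cells) and 19.96% in WT (47 cells). Aortic luminal-like cells (Thbs1, Frzb, Cyp1b1) held 16.8% (165 cells) and 18.5% (82 cells), venous-like cells (Plac8, Lrg1) 18.1% (157 cells) and 17.1% (36 cells), and arterial-like cells (Sema3g, Ly6c1) 14.6% (182 cells) and 16.4% (33 cells). General capillary-like cells (Rgcc, Car4) with 13.8% in KO (104 cells) and 13.6% in WT (60 cells), and lymphatic-like cells with 13.8% (186 cells) and 13.8% (39 cells), were at or near the low end in both genotypes.

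**Figure D3:**
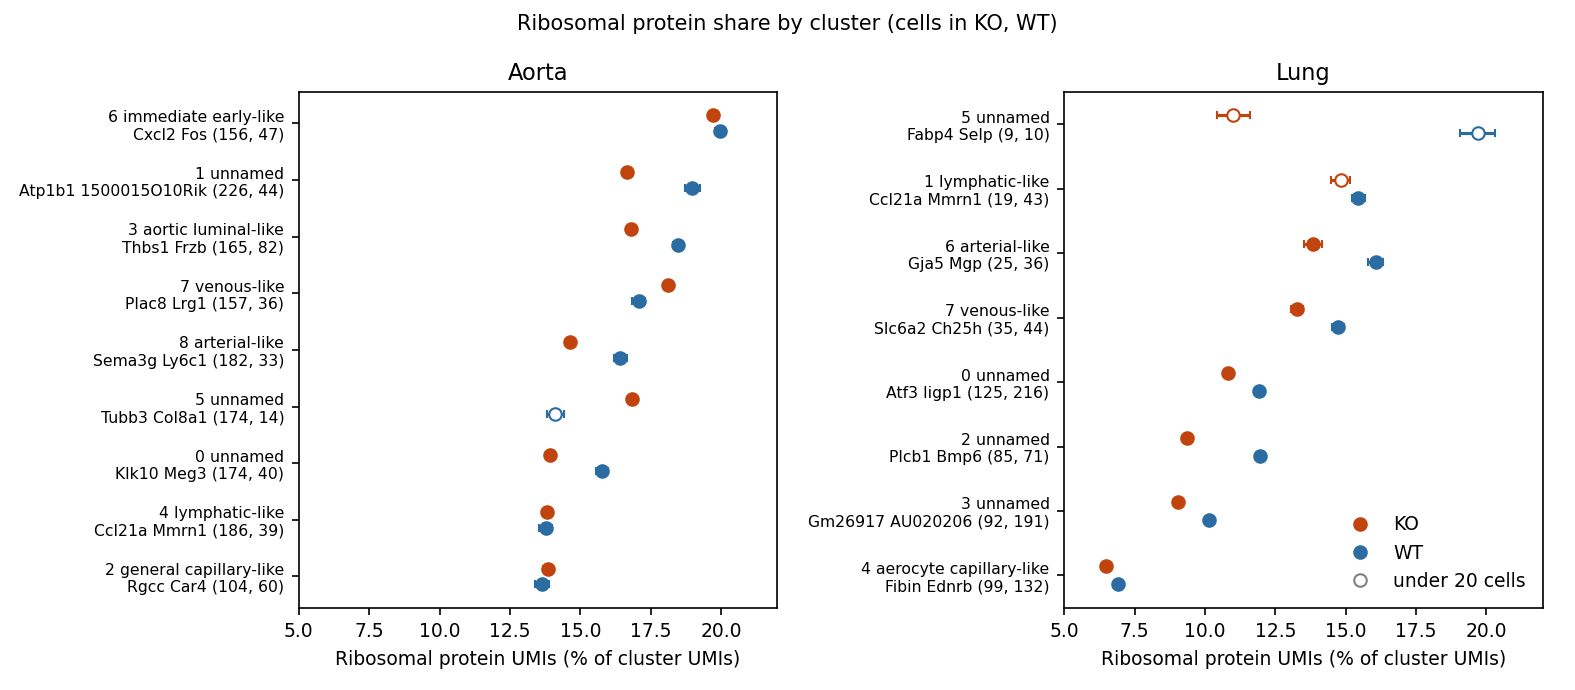
Share of summed UMIs from ribosomal protein genes (x axis, percent) in each endothelial cluster (rows, with its 2 leading genes and the number of KO and WT cells) of aorta and lung; KO points lie above WT points, bars are exact 95% intervals of counting error and open points rest on under 20 cells. Aerocyte capillary-like cells are lowest, at 6.49% in KO and 6.93% in WT, and in the lung every KO point lies left of its WT point.

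Within a vessel type, the summed shares of the tissues were closer than over all blood endothelial-like cells, least so in KO venous-like cells. Arterial-like cells of the aorta stood at 1.06 times the share of those of the lung in KO (1.03 to 1.09) and at 1.02 times in WT cells (0.999 to 1.05), with 15 of 82 genes higher and 6 lower past the threshold in KO and 12 of 81 higher and 5 lower in WT cells. Over all measured genes the shares past the threshold were 41.3% higher and 29.9% lower in KO and 39.4% and 28.6% in WT arterial-like cells. Lymphatic-like cells of the aorta stood below those of the lung, at a ratio of 0.933 in KO (0.910 to 0.958) and 0.892 in WT cells (0.870 to 0.914), with 2 of 81 genes higher and 12 lower in KO, and 4 higher and 16 lower in WT cells. The corresponding shares of all genes were 38.0% and 25.8% in KO and 30.9% and 21.6% in WT lymphatic-like cells. Genes lower past the threshold were thus no more frequent than in the background in either genotype. Venous-like cells kept a higher aortic share, 1.36 times in KO (1.34 to 1.39) and 1.16 times in WT cells (1.13 to 1.19). There 53 of 82 genes in KO were higher past the threshold, against 32.5% of all genes. In WT cells 23 of 81 were, close to the background of 29.8%. Lower past it were 1 in KO, against 33.1%, and 0 in WT, against 31.9%. Each of these classes was named from its markers in each tissue separately, and the arterial- and venous-like clusters of the 2 organs had different leading genes.

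Single genes did not all follow the sums within a vessel type. Rps27rt was higher in the aorta in all 3 vessel types, by 1.87-, 2.83- and 3.42-fold in KO and 1.45-, 1.504- and 3.05-fold in WT arterial-, lymphatic- and venous-like cells. Rps3 was 2.24-fold higher in KO and 1.27-fold in WT arterial-like cells and 2.13- and 2.06-fold higher in KO and WT venous-like cells, but had ratios of 1.23 in KO and 0.986 in WT lymphatic-like cells. Rps28 had ratios of 1.26 and 1.37 in arterial-like and 0.903 and 0.965 in lymphatic-like cells of KO and WT, and of 1.77 and 1.49 in venous-like cells, all below its ratios in the sums. Rpl12 stood at 0.702 in KO and 0.942 in WT arterial-like cells, at 1.09 and 0.843 in lymphatic-like and at 1.43 and 0.924 in venous-like cells. Rpl22l1, a paralog of Rpl22, was lower in aortic than in lung lymphatic-like cells, at ratios of 0.576 in KO and 0.487 in WT.

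Aerocyte capillary-like cells held lower levels of nearly all ribosomal protein genes than the other blood endothelial-like cells of the same lung. The share was 0.606 times that of the others in KO (6.49% against 10.7%, 0.595 to 0.617) and 0.567 times in WT cells (6.93% against 12.2%, 0.559 to 0.575). Lower past the threshold were 74 of 82 genes in KO, against 29.7% of all genes, and 76 of 81 in WT cells, against 28.1%, and 74 were lower in both. Higher past it were 0 in either, against 35.9% of all genes in KO and 38.8% in WT cells. The median log2 ratio was -0.73 in KO and -0.83 in WT cells, where all measured genes had medians of 0.08 and 0.13. Aerocyte-like cells were deeper, with a median of 1892 UMIs in KO and 2279 in WT against 1620 and 1514 in the other cells. In the 71 KO and 122 WT aerocyte-like cells of at least 1000 UMIs, thinned to 1000, the median share was 6.50% and 6.65%. Thinning does not change the expected share of a cell, so the part of depth was not tested.

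Rps6, the substrate of S6 kinase in the small subunit, was furthest down, with 621 CPM in aerocyte-like cells against 1709 CPM in the others in KO and 742 against 1912 CPM in WT. Its ratios were 0.364 (0.301 to 0.436) and 0.388 (0.339 to 0.443). Rps27 had ratios of 0.445 in KO and 0.389 in WT, Rpl36a 0.436 and 0.425, Rps19, whose human counterpart is the gene mutated most often in Diamond-Blackfan anaemia, 0.451 and 0.446, and Rpl12 0.519 and 0.394. A few genes stayed level. Rps27l, a paralog of Rps27 that p53 induces, stood at 362 CPM in aerocyte-like cells against 324 CPM in KO and at 300.5 against 269 CPM in WT, a ratio of 1.12 in each, with intervals of 0.851 to 1.46 and 0.878 to 1.41. Rpl31 had ratios of 1.08 and 0.973, Rpl10 1.04 and 0.902, and Rpl15 0.894 and 0.929, all with intervals that include 1. The windows shown above for Rps6, the lowest gene of this contrast, and for Rpl15, which stayed near level, both hold a pyrimidine run. Genes with and without a run were not compared.

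**Figure D4:**
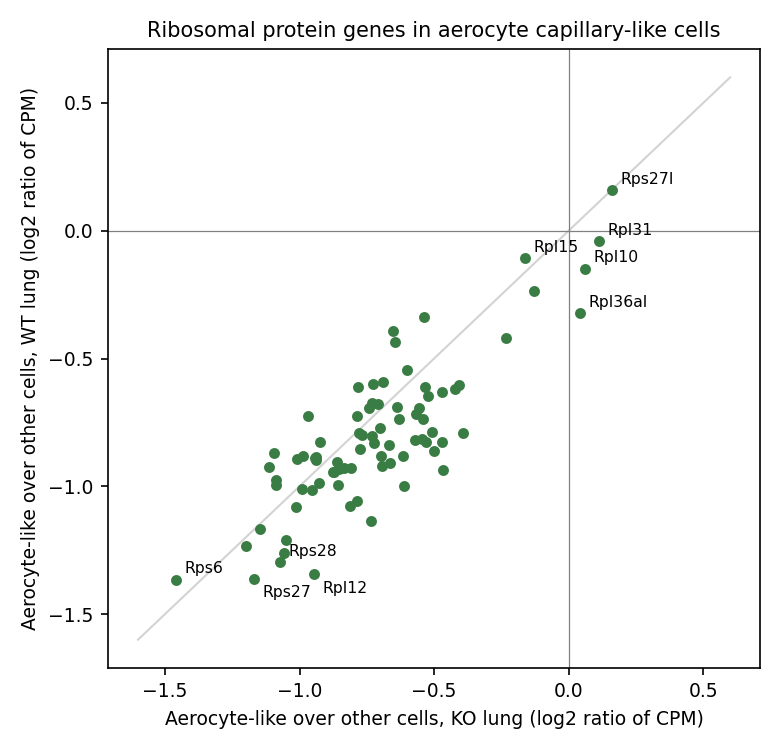
Log2 ratio of CPM, aerocyte capillary-like over the other blood endothelial-like cells of the lung, for ribosomal protein genes in KO (x axis) and WT (y axis); the diagonal marks equal ratios. Rps6 is lowest in both libraries, and Rps27l, Rpl31, Rpl10 and Rpl15 lie near 0.

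Several of these genes also had the widest range between lung vessel types. Rpl12 had 151 CPM in aerocyte-like and 582 CPM in arterial-like cells of KO, a range of 3.86-fold, and 123 and 675 CPM in those of WT, 5.48-fold. Rps28 spanned 3.60-fold in KO and 3.67-fold in WT, Rps6 3.31-fold in KO and Rps27 3.69-fold in WT, each lowest in aerocyte-like and highest in arterial-like cells. Ranges in the aorta were taken over 8 clusters, lymphatic-like cells included, and those in the lung over 6 without them, so the tissues are not compared here. In the aorta Rps3, Rpl10 and Rpsa, the laminin receptor that is also a small subunit protein, spanned 2.35-, 2.19- and 2.18-fold in KO. Rpsa, Rps27l and Rpl22 spanned 3.38-, 3.17- and 2.76-fold in WT, each lowest in general capillary-like cells. For Rpsa the lowest value there was 299.9 CPM and the highest 1014 CPM.

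Lymphatic-like cells stood on opposite sides of blood endothelial-like cells in the 2 organs. In the lung their share was 1.53 times that of blood endothelial-like cells in KO (1.49 to 1.57) and 1.42 times in WT (1.40 to 1.44). Higher past the threshold were 72 of 82 genes in KO, against 37.3% of all genes, and 61 of 81 in WT, against 32.0%, and lower were 0 in KO, against 39.4%, and 2 in WT, against 36.6%. Rpl5, which with Rpl11 and the smallest ribosomal RNA forms the particle that binds Mdm2, stood at 719 CPM in lymphatic-like against 263 CPM in blood endothelial-like cells of KO and at 676 against 287 CPM of WT, ratios of 2.73 and 2.35. Rpl22l1 had ratios of 2.88 in KO and 2.03 in WT. In the aorta the lymphatic share was 0.831 times that of blood endothelial-like cells in KO (0.823 to 0.838) and 0.792 times in WT (0.777 to 0.807). Lower past the threshold were 24 of 82 genes in KO, close to the background of 24.9%, and 43 of 82 in WT, against 28.6%. Higher past it were 0 in KO, against 29.6%, and 1 in WT, against 40.8%.

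Aortic cells with immediate early transcripts held a higher share of ribosomal protein UMIs than the other aortic cells. The share was 1.22 times as high in KO (1.21 to 1.23) and 1.19 times in WT (1.18 to 1.21). Higher past the threshold were 29 in KO, against 11.6% of all genes, and 21 in WT, close to the background of 23.8%, and lower were 0 in KO, against 23.0%, and 2 in WT, against 27.0%. Rps4x, on the X chromosome, and Rpl4 were among the highest in both, at ratios of 1.38 and 1.36 in KO and 1.39 and 1.40 in WT. Rps27l again stood apart, with ratios of 0.898 in KO and 0.783 in WT, both with intervals that include 1. These cells were deeper, with a median of 3387 UMIs against 2240 in KO and 3558 against 1882 in WT. Within each library, whose cells share their preparation, across the 1338 cells of the KO aorta and the 356 of the WT aorta the share of ribosomal protein UMIs had Spearman correlations of 0.35 and 0.31 with UMIs per cell and of -0.47 and -0.37 with the mitochondrial share. Across the 470 and 700 cells of the KO and WT lung these were 0.04 and 0.06, and 0.21 and 0.20. General capillary-like aortic cells had ratios of 0.825 in KO and 0.768 in WT to the other aortic cells, with 39 of 82 genes lower past the threshold in KO, against 34.4% of all genes, and 50 of 82 in WT, against 41.0%. Higher past it were 0 in either, against 31.5% and 33.5%, and these cells were shallower, with a median of 1337 UMIs against 2471 in KO and 1110 against 2439 in WT.

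Between genotypes the aortic libraries differed little, except for Rpl13a. The share in the KO aorta was 0.958 times that in the WT aorta (0.953 to 0.963), a log2 ratio of -0.06 that was -0.01 over all deposited barcodes. Of 82 genes 27 were higher and 55 lower by any amount, where 55.2% and 44.8% of the 2960 measured genes were. Past the threshold 0 genes were higher, against 13.0% of all measured genes, and 1 was lower, against 10.6%. The median log2 ratio was -0.04, and that of all measured genes 0.03.

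The gene that differed was Rpl13a, a large subunit protein that also silences inflammatory mRNAs in the GAIT complex (chromosome 7, 45125558 to 45128761, minus strand). It stood at 1006 CPM in the KO aorta and 2020 CPM in the WT aorta, a ratio of 0.498 (0.471 to 0.527), and at 1269 CPM in the KO lung and 1310 CPM in the WT lung, a ratio of 0.968 (0.898 to 1.04). The KO aorta was thus the lowest library and the WT aorta the highest, with both lung libraries between them. Both aortic matrices list the same 31053 gene entries in the same order; whether they were counted with the same annotation and settings was not tested. It was lower in KO in all 7 blood endothelial clusters of the aorta with at least 20 cells in each library, for example at 1023 against 2047 CPM in aortic luminal-like and 935 against 1874 CPM in general capillary-like cells, and its log2 ratio stayed between -1.06 and -0.95 under all other settings. Of its last 300 transcript bases 35.6% are shared with other genes.

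The rest of the aortic genes lay within the threshold. Rps29 stood lower, with 5067 CPM in KO and 6052 CPM in WT, a ratio of 0.837 (0.812 to 0.863). Rpl13a, Rps29 and Rps26 were the 3 of 81 genes lower in all 7 clusters, where 1.98% of 1009 genes compared in all 7 were, and 0 were higher in all 7, against 4.26%. Rpl35, Rps20 and Rpl27 each had a ratio of 0.85, and Rps28, Rps14 and Rps25 ratios of 0.874, 0.883 and 0.881. On the higher side were Rps3 at 3199 against 2875 CPM (1.11), the stalk protein Rplp0 at 2282 against 2056 CPM (1.11), Rpl5 (1.12), Rpl7a (1.13), Rps2 (1.10), Rpl15 (1.09), Rps6 (1.08) and Rpl10 (1.07). These higher values were mixed within clusters, with Rps3 higher in 4 and lower in 3 of 7, and Rps2 and Rpl7a had log2 ratios of -0.03 and -0.06 with cells thinned to 1000 UMIs.

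By cluster, the KO share of summed UMIs was below the WT share in 5 of the 9 endothelial clusters of the aorta. The lower ratios were 0.879 and 0.884 in 2 unnamed clusters (led by Atp1b1 and by Klk10), 0.891 in arterial-like, 0.910 in aortic luminal-like and 0.987 in immediate early-like cells. In venous-like cells the ratio was 1.06 (1.04 to 1.08) and in the cluster led by Tubb3 and Col8a1, with 174 KO and 14 WT cells, 1.20 (1.17 to 1.22). General capillary- and lymphatic-like cells had ratios of 1.01 and 1.00 with intervals that include 1. By the median cell, KO was lower in general capillary-like cells (12.4% against 13.4% in WT) and higher in immediate early-like cells (19.5% against 19.0%). Markers of other cells also differed between the aortic libraries: erythroid markers summed to 9.63 CPM in KO and 2784 CPM in WT (5 of 5 detected in each), fibroblast markers to 1421 and 640 CPM (8 and 7 of 8) and smooth muscle markers to 748 and 490 CPM (7 and 8 of 8). Their part in the differences between the aortic libraries was not tested.

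In the lung the KO library held a lower share, and the difference was spread over many genes. The share ratio was 0.892 (0.884 to 0.899), and by any amount 75 of 82 genes were lower and 7 higher, where 46.2% and 53.8% of 3333 measured genes were. Past the threshold 4 were lower, against 8.13% of all genes, and 1 was higher, against 13.0%, so genes past it were no more frequent than in the background. The median log2 ratio was -0.13, and that of all measured genes 0.02. Each of the 8 endothelial clusters had a KO share of summed UMIs below its WT share. Ratios ran from 0.559 in the cluster of 9 KO and 10 WT cells to 0.960 in lymphatic-like cells. Every interval of counting error lay below 1, but these intervals do not show the spread between cells. By the median cell, KO was slightly higher in lymphatic-like cells (14.20% against 13.99% in WT) and lower in the other endothelial clusters. Of 81 genes 33 were lower in KO in all 6 blood endothelial clusters that could be compared, against 12.3% of 520 genes compared in all 6, and 0 were higher in all 6, against 6.15%.

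Rps23, at the decoding centre (chromosome 13, 90922958 to 90924950), was the lowest, with 1714 CPM in the KO lung and 2259 CPM in the WT lung, a ratio of 0.759 (0.713 to 0.808), against 3489 and 3539 CPM in the KO and WT aorta. Rps27 stood at 3327 CPM in KO and 4200 CPM in WT, a ratio of 0.792 (0.757 to 0.829), and Rpl34 at 1211 and 1533 CPM, 0.790 (0.733 to 0.851). Rpl22l1, at 405 and 516 CPM, was the fourth past the threshold, with 0.785 (0.689 to 0.893). Rps23, Rps27 and Rpl34 were lower in KO in 6 of 6 clusters and Rpl22l1 in 5 of 6. Rps23 shares 54.0% of its transcript end with other genes. Rps14 and Rps19 followed with ratios of 0.828 and 0.825, each lower in 6 of 6 clusters. Fau, a fusion of a ubiquitin-like domain with a small subunit protein outside the naming rule, stood at 1771 CPM in KO and 2247 CPM in WT, a ratio of 0.788; its transcript end is 54.6% shared.

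Paralogs were set beside their parents between the lung libraries. Rpl7l1, a processing factor related to Rpl7, had a ratio of 1.34 between the KO and WT lung at 60.8 and 45.4 CPM, with an interval of 0.909 to 1.97 that includes the 0.920 of Rpl7, and it was lower in KO in the 1 cluster that could be compared. Rps27l stood at 333 CPM in the KO lung and 277 CPM in the WT lung, a ratio of 1.20 (1.03 to 1.41), beside 0.792 for Rps27; it was higher in 4 and lower in 2 of 6 clusters. Other paralogs resembled their parents more closely: Rpl36al had a ratio of 0.921 beside 0.958 for Rpl36a, and Rps27rt 0.884 beside 0.792 for Rps27. Rpl22 had 0.989 where Rpl22l1 had 0.785, so in this pair it was the paralog that was lower. Cdkn1a, another transcript that p53 induces, stood at 2026 CPM in the KO lung and 2128 CPM in the WT lung. In the KO aorta it had 337 CPM and in the WT aorta 536 CPM. A part of p53 in the Rps27l ratio was not tested. Epithelial markers summed to 446 CPM in the KO lung and 38.6 CPM in the WT lung (3 and 4 of 9 detected; Krt19, Msln and Epcam at 0 in all libraries), erythroid markers to 84.4 and 0.757 CPM (4 and 1 of 5), and their part in the difference was not tested.

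**Figure D5:**
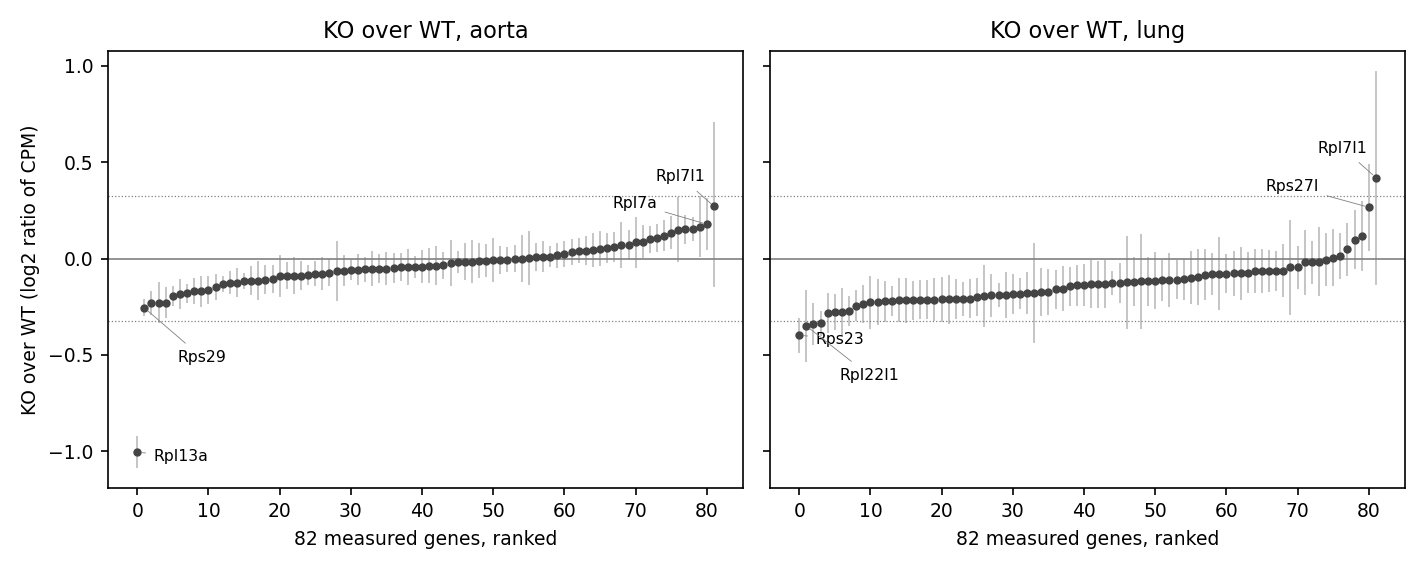
Log2 ratio of CPM, KO over WT, for the 82 measured ribosomal protein genes ranked within aorta and within lung (x axis); bars are 95% intervals of counting error and dotted lines mark 25% higher and 20% lower. Rpl13a stands alone at -1.005 in the aorta, and in the lung 75 of the 82 points lie below 0.

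Genes that work with the ribosome followed it only in part. The 19 translation factors and other proteins known for TOP mRNAs were the closest: 17 were higher and 1 lower past the threshold in the aorta than in the lung of KO cells and 13 of 19 higher and 0 lower in WT cells, with median log2 ratios of 0.72 and 0.49. Over all genes 26.7% were higher and 38.3% lower by that much in KO cells, and 25.7% and 38.8% in WT cells, and these shares are also the background of the lists that follow. Eef1b2, a subunit of the elongation factor that exchanges guanine nucleotides, had 420 CPM in the WT aorta against 195 CPM in the WT lung (2.15), and Eif3h 499 CPM in the KO aorta against 235 CPM in the KO lung (2.12), whereas elongation factor Eef2 had ratios of 1.14 in KO and 1.10 in WT cells. Pabpc1, the poly(A)-binding protein, went the other way in KO cells at 326.5 CPM in the aorta and 439 CPM in the lung (0.744). Between genotypes the TOP list had medians of -0.01 in the aorta and -0.13 in the lung, where 0 of 18 were higher and 5 lower past the threshold, among them Eif3h (0.742) and Eif4b (0.720).

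Initiation factors without TOP mRNAs, mitochondrial ribosomal proteins and biogenesis factors lay closer to 0 between tissues. The 23 other initiation factors had medians of 0.06 in KO (7 higher and 3 lower past the threshold) and -0.04 in WT cells (4 and 4 of 22), with Eif3i at ratios of 2.22 and 1.56 and Eif4h at 0.633 and 0.556. Mitochondrial ribosomal proteins had medians of 0.18 in KO (13 higher and 3 lower of 40) and 0.02 in WT cells (6 and 8 of 36), with the higher genes near the background in KO and below it in WT cells, and with Mrpl33 at 1.58 in KO and Mrpl58 at 0.610 in WT cells. Ribosome biogenesis factors had medians of 0.26 in KO (7 higher and 2 lower of 19) and 0.19 in WT cells (4 and 3 of 15), with the ribosomal RNA methyltransferase fibrillarin (Fbl) at 2.19 in KO and Sbds, which frees the large subunit for joining, at 0.580 in KO and 0.643 in WT cells. Chaperones and targeting factors of the nascent chain had medians of 0.39 in KO (4 higher of 7) and 0.23 in WT cells (2 higher of 6), with Naca at 1.56 and 1.37.

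Regulators were thinly measured. Of 15 genes of mTOR signalling and TOP mRNA control 6 were measured between tissues, with medians of -0.47 in KO (1 higher and 4 lower past the threshold) and -0.16 in WT cells (1 and 2). Eif4ebp2, a translation repressor that mTOR inactivates, stood at 27.3 CPM in the KO aorta and 87.8 in the KO lung, and at 33.2 in the WT aorta and 95.4 in the WT lung, ratios of 0.311 and 0.348. Its relative Eif4ebp1 had ratios of 1.26 in KO and 1.87 in WT cells. The p53 target Cdkn1a differed most among the Myc and p53 genes, at ratios of 0.166 in KO and 0.252 in WT cells between aorta and lung. Of 4 host RNAs of small nucleolar RNAs only Snhg6 was measured, at 53.8 CPM in the WT aorta and 53.8 CPM in the WT lung.

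Between genotypes these lists differed little, beside all-gene shares past the threshold of 13.0% higher and 10.6% lower in the aorta and 13.0% and 8.13% in the lung. In the aorta the medians were 0.16 for other initiation factors (3 higher and 0 lower of 23), 0.14 for mitochondrial ribosomal proteins (8 and 2 of 41), 0.04 for biogenesis factors (3 and 0 of 18), 0.07 for nascent chain factors (0 and 0 of 6), -0.20 for mTOR and TOP regulators (1 and 2 of 5) and 0.01 for the Myc and p53 genes (1 and 1 of 4). In the lung they were 0.06 (1 and 3 of 22), -0.04 (4 and 3 of 38), 0.01 (4 and 0 of 16), -0.02 (1 and 0 of 7), 0.01 (2 and 0 of 6) and 0.00 (0 and 1 of 4) in the same order. Fbl at 111 CPM in the KO aorta and 64.1 CPM in the WT aorta (1.73, 1.31 to 2.33) and Ncl, the nucleolar protein nucleolin, at 208 CPM in the KO lung and 259 CPM in the WT lung (0.804, 0.669 to 0.964) were at the ends of the biogenesis list. In both tissues the medians of these lists for KO against WT therefore lay above that of the ribosomal protein genes, except that of the mTOR and TOP regulators in the aorta.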

How the data were processed

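The deposited values are whole-number counts (UMIs per gene and cell) in 4 matrices. The submitters' processing notes name Cell Ranger as the authors' tool and mm10 as the build; its version and the captured transcript end are not stated in the labels used. Lung matrices name genes by Ensembl identifier, matched to GENCODE M21, from which coordinates come (mm10, 1-based). Members and lists were chosen with earlier results of these data known.

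Cells were filtered as stated, and clustered within each tissue, both genotypes together and without ribosomal protein and mitochondrial genes, in scanpy 1.11.5 (2000 variable genes, 30 principal components, 15 neighbours, Leiden resolution 1). No annotation by the authors was used, so the cluster names, built from markers, may not be theirs. Scrublet called 6, 3, 8 and 6 doublets in the KO aorta, WT aorta, KO lung and WT lung; they were kept, and removed in an alternative. No correction for free RNA was made.

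UMIs were summed per library and class. Ratios have exact conditional, CPM exact Poisson and shares exact Clopper-Pearson 95% intervals (scipy 1.17.1). The ratio script was checked on simulated data. Genes were measured where their mean reached 50 CPM and their UMIs 30, and called at 25% higher or 20% lower. Genes named are, per comparison, the 8 highest and 8 lowest when ordered by whichever interval bound lies closer to 1, then the 6 highest and 6 lowest levels, the paralogs with their parents, the 3 genes of widest range between vessel types and the 2 highest and 2 lowest of each list; others were chosen after their values were seen. A few genes that this rule names are not reported here. Shared transcript ends are the percent of 50-base words in the last 300 bases found in other genes, at least 50% in 20 of the 86 genes.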

Additional observations from a re-analysis of the deposited data

Results flagged for a closer look

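In 4 genes the KO library stood above the WT library in the aorta and below it in the lung, with both intervals of counting error clear of 1. The log2 ratios were 0.15 in the aorta and -0.17 in the lung for Rps3, a difference of 0.33. For Rps7, a small subunit protein, they were 0.09 and -0.21, a difference of 0.30. For Rps6 they were 0.11 and -0.16, a difference of 0.26, and for Rpl15 0.12 and -0.13, a difference of 0.25. With 1 library per group the difference between tissues was not tested.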

How the results depend on the processing

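No paired analysis was possible because each group is 1 library and the labels give no replicate numbers. No share ratio between whole libraries and no contrast of a vessel type with other cells of its tissue changed direction under any setting run. The ratios between tissues within a vessel type and between genotypes within a cluster were not rerun under these settings. For named genes 380 values stayed within the counting interval of the reported one and 82 moved beyond it. The log2 ratio of the share is given for KO against WT in the aorta and in the lung, then for the aorta against the lung in WT and in KO cells. It was -0.039, -0.22, 0.53 and 0.71 with all kept cells, and -0.0094, -0.22, 0.49 and 0.70 with all deposited barcodes. With median-of-ratios scaling it was -0.10, -0.19, 0.81 and 0.91, with cells thinned to 1000 UMIs -0.092, -0.18, 0.65 and 0.75, and with clusters weighted alike -0.082, -0.19, 0.52 and 0.63. In the aorta against the lung it was 0.69 in WT and 0.80 in KO with at least 1000 UMIs and at most 10% mitochondrial, 0.70 and 0.80 without mitochondrial and haemoglobin UMIs, and 0.63 and 0.70 as the mean of per-cell shares. For KO against WT in the aorta it was -0.082 as the mean of per-cell shares and -0.072 without the 1% of cells of highest UMI total. The cause of these shifts was not tested.

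The log2 ratio in aerocyte-like cells was -0.81 in KO and -0.84 in WT with at least 1000 UMIs and at most 10% mitochondrial, -0.52 and -0.77 as the mean of per-cell shares, -0.79 in WT with thinned cells, -0.75 in KO with Scrublet calls removed and -0.67 in KO without the top 1% of cells. In immediate early-like cells it was 0.28 in KO and 0.23 in WT with the stricter cell filter, 0.27 and 0.22 without mitochondrial and haemoglobin UMIs, 0.35 and 0.28 as the mean of per-cell shares, 0.34 and 0.23 thinned, 0.26 and 0.30 with clusters made with the ribosomal protein genes, and 0.31 and 0.22 without the top 1% of cells. In general capillary-like cells it was -0.25 in KO and -0.33 in WT with the stricter filter, -0.30 in WT without mitochondrial and haemoglobin UMIs, -0.31 in WT thinned and -0.26 in KO with clusters made with the ribosomal protein genes. In lymphatic-like lung cells the mean of per-cell shares gave 0.58 in KO and 0.48 in WT. In lymphatic-like aortic cells it was -0.25 in KO with the stricter filter, -0.28 without mitochondrial and haemoglobin UMIs, -0.25 in KO and -0.38 in WT as the mean of per-cell shares, -0.19 in KO thinned and -0.25 in KO without the top 1% of cells.

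Counts past the threshold changed for KO against WT and for Rpl13a between tissues. In the lung the number higher was 0 with all kept cells, all barcodes, per-cell shares, thinned cells, a minimum of 200 CPM or a fold of 1.5, and the number lower was 7 with all barcodes, 2 with per-cell shares, 8 with thinned cells and 0 at a fold of 1.5. In the aorta the number lower was 2 with per-cell shares and 2 without a filter on low values, and the number higher was 1 with thinned cells and 1 without that filter. For the aorta against the lung in KO cells the number lower was 0 without mitochondrial and haemoglobin UMIs, with median-of-ratios scaling, without the top 1% of cells and at a fold of 1.5. In the KO aorta Rps2 and Rpl7a, which stood above WT, had log2 ratios of -0.03 and -0.06 with thinned cells, and Rps2 -0.02 with clusters weighted alike.

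With 1 library per group, the spread between animals is unknown, and genotype, tissue and preparation cannot be told apart. UMIs from free RNA were not removed. How counts were divided between genes with shared transcript ends, Rps27rt among them, is not known. The intervals come from summed UMIs, so in clusters of under 20 cells they do not show the spread between cells. In the 9 KO lung cells of the cluster led by Fabp4 and Selp, for example, the interval was 10.4% to 11.6%. Single cells there ran from 6.89% to 21.0%.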
